A study of Mus musculus with 2 samples.

Results

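The genes described here are the mouse Hox genes of the 4 clusters together with the Pbx, Meis and Pknox genes that encode their DNA-binding partners. They were matched by gene symbol, under a rule set with earlier results of these data known. Of the 38926 features listed in both libraries 47 matched: 38 Hox genes and 9 cofactor genes. The gene Hoxd4 was not among the listed features, so values for the Hoxd cluster and for the Hox genes of number 4 leave it out. Any further Hox gene was not analysed here.

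Hox genes encode homeodomain transcription factors. They lie in clusters whose gene order follows the position of expression along the body, from low-numbered genes near the head to high-numbered genes near the tail, so that each level of the trunk carries its own combination. Hox proteins have short and similar DNA target sites on their own, and bind more selectively in complexes with Pbx proteins and with Meis or Pknox proteins, which also control whether Pbx enters the nucleus. Genes of the same number in different clusters form a paralog group and often have overlapping functions.

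The tissue was the pleuroperitoneal fold (PPF) of wild-type mice at embryonic day 12.5, on the mixed strain background given as 129s/SvlmJ-C57/BL6J. PPFs are paired transient structures that give rise to connective tissue of the diaphragm, and each of the 2 libraries pooled 2 pairs of folds dissected by hand from trunks without heart and lungs. Per the series' design text, the purpose was to rank candidate genes for congenital diaphragm defects in humans. All samples are of this 1 group, called replicates 1 and 2, so there is no contrast between conditions. Separate litters are not stated, and the spread between the libraries may therefore be technical.

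Total counts were 26370253 for replicate 1 and 23255957 for replicate 2, and 24412 features in replicate 1 and 24221 in replicate 2 had at least 1 count. Levels are given as TPM, transcript abundance per length of gene relative to a fixed library sum. TPM can be compared between genes on the gene lengths that the authors used. Of 12 markers of PPF connective tissue, all 12 reached 1 TPM in each library, as did 10 of 10 muscle and 8 of 8 mesothelial markers. All 8 endothelial markers, the 7 erythroid and the 7 macrophage markers found were also at that level. So were 6 of 10 neuronal, 4 of 8 hepatoblast and 3 of 10 mesonephros and gonad markers, beside 63.8% of protein-coding genes. The libraries thus held RNA of several cell types, and whether all of these cells lay within the folds was not tested. In such bulk samples fewer cells of a type and less RNA per cell cannot be told apart.

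The sequence that sets the families apart is a stretch of the homeobox that codes for residues within the recognition helix. This helix is the part of the homeodomain that lies in the DNA major groove. The stretch is shown for the highest Hox gene, for a Hox gene with no reads, and for leading cofactors. It is given as 24 bases of coding strand, 5′ to 3′, with the codon known to bear on DNA-binding preference in capitals.
Hoxa5: aaaatctggttcCAAaacaggagg
Hoxd13: accatttggtttCAGaatcgaagg
Pbx2: tccaactggttcGGTaacaagcga
Meis2: aacaactggtttATCaatgccaga
Meis1: aacaattggtttATTaatgcccgg
Pknox1: aacaactggttcATCaacgcgaga

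These stretches were read from GENCODE M21 transcripts on GRCm38, the source of the gene positions given below. They lie at chr6:52202653-52202676 (minus strand) in Hoxa5, chr2:74670065-74670088 (plus strand) in Hoxd13 and chr17:34594804-34594827 (plus strand) in Pbx2, while in the Meis and Pknox genes the stretch crosses an exon junction. The codon in capitals was CAG in 34 and CAA in 4 of the 38 Hox genes, both of which code for glutamine. It was a glycine codon in 4 of 4 Pbx genes. It was an isoleucine codon in 3 of 3 Meis genes (ATT in 2, ATC in 1) and in 2 of 2 Pknox genes (ATC). Hox and cofactor transcripts are therefore distinct over this stretch. Among pairs of members whose exons do not overlap, however, the longest run of bases shared exactly was 58, between Hoxc9 and Meis1. Hoxc5 and Hoxc10, whose exons overlap on the same strand, share 166 exon bases. Hoxb9 and Hoxc9 shared a run of 50 bases, and Hoxb3 and Hoxd3 a run of 47. Whether reads were split between such copies depends on a read length not given in the sources used here.

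Genes are called expressed where each library had at least 1 TPM. By this rule 22 of 38 Hox genes (57.9%) and 9 of 9 cofactor genes were expressed, against 44.4% of all 38926 features and 63.8% of 20386 protein-coding genes. The Hox share was thus close to that of protein-coding genes in general. The expressed Hox genes were those of the anterior and middle parts of the clusters. Paralog groups 1 to 4 contributed 9 of their 11 listed genes, groups 5 to 8 all 11, and groups 9 to 13 only 2 of 16. The median level was 20.1 TPM over the 22 expressed Hox genes, 5.99 TPM over all 38, and 33.9 TPM over the 9 cofactors, beside 27.0 TPM over the 13000 expressed protein-coding genes.

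Summed over all 38 genes, Hox transcripts reached 679.9 TPM in replicate 1 and 608.2 TPM in replicate 2, a mean of 644 ± 50.7 TPM (SD, n = 2). Groups 5 to 8 supplied 55.8 ± 2.28% of this sum and groups 1 to 4 supplied 42.4 ± 2.06%, while the 16 genes of groups 9 to 13 supplied 1.82 ± 0.225% (SD, n = 2). Hox output was concentrated in few genes. Hoxa5 alone held 24.3% of the sum in replicate 1 and 24.5% in replicate 2, and the 10 highest Hox genes held 79.6% in replicate 1 and 79.2% in replicate 2.

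**Figure D1:**
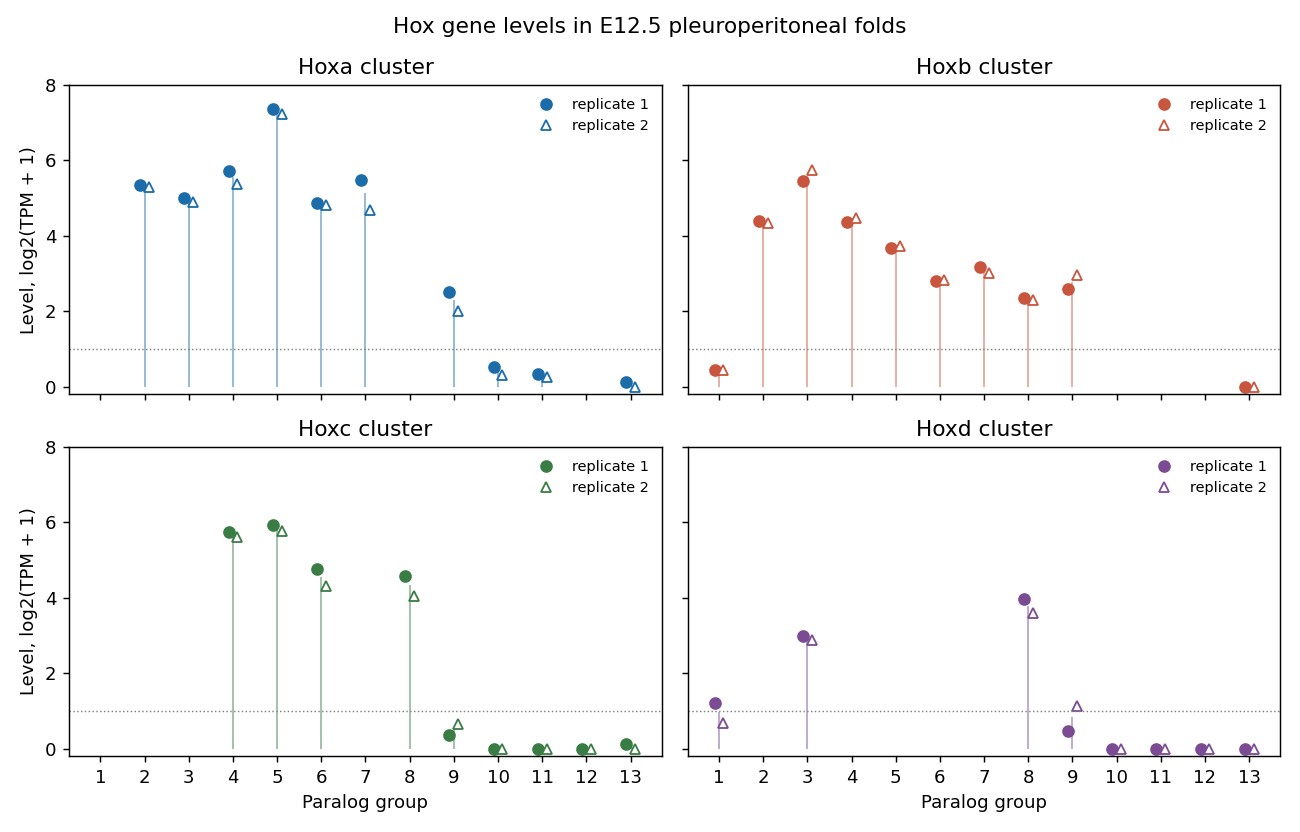
Level of the Hox genes reported here as log2(TPM + 1) by paralog group, 1 panel for each cluster, with replicate 1 as filled circles and replicate 2 as open triangles; the lines reach the mean and the dotted line marks 1 TPM. The points are high from group 2 to group 8, peak at Hoxa5, and lie near 0 from group 10 on.

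By cluster, the Hoxa genes of chromosome 6 led. They summed to 376.7 TPM in replicate 1 and 322.9 TPM in replicate 2, which was 54.3 ± 1.63% of the Hox total (SD, n = 2). The Hoxc genes of chromosome 15 held 23.2 ± 1.02% and the Hoxb genes of chromosome 11 held 19.3 ± 2.85%, and between these the order was the same in both libraries. The Hoxd genes of chromosome 2 held 3.29 ± 0.196%. Expressed members numbered 8 of 11 in Hoxa, 8 of 10 in Hoxb, 4 of 9 in Hoxc and 2 of 8 in Hoxd. Hoxd4, which was not listed, is in none of the Hoxd values. The Hoxb cluster thus had as many expressed genes as Hoxa at a lower summed level.

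Exon overlap limits these shares. Reads of a gene and of an antisense partner could not be told apart where the strand setting of the counting is unknown. Sharing was read from M21, whose exon length equalled the counted length for 18 of the 47 members. The counted exons may therefore share more or less. By M21, 9 Hox genes shared over 10% of their exon bases with another annotated gene. Without them, groups 5 to 8 held 77.5% and groups 1 to 4 held 19.8% of the remaining Hox TPM. By cluster the shares then were 47.6% for Hoxa, 35.5% for Hoxc and 13.5% for Hoxb, so the order of the clusters and of the bands was kept. On counts scaled by library alone, with no gene length, groups 1 to 4 held 50.3% and groups 5 to 8 held 47.3%, which turns that order round.

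Group 1 genes pattern the hindbrain. Hoxb1 had 0.355 TPM in each library, from 7 counts in replicate 1 and 6 in replicate 2. Hoxd1 had 1.33 TPM (21 counts) in replicate 1 and 0.591 TPM (8 counts) in replicate 2. Neither gene was expressed in both libraries. In group 2, Hoxa2, which gives the second pharyngeal arch its identity, had 39.9 TPM in replicate 1 and 38.1 TPM in replicate 2. Its paralog Hoxb2 had 19.9 TPM in replicate 1 and 19.5 TPM in replicate 2, below Hoxa2 in both libraries.

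Group 3 genes act in the pharyngeal region and upper neck, and Hoxa3 is needed for the thymus and parathyroid. Hoxb3 was the highest of the group at 42.7 TPM in replicate 1 and 52.2 TPM in replicate 2. Hoxa3 had 31.1 TPM in replicate 1 and 29.1 TPM in replicate 2, and Hoxd3 had 6.95 TPM in replicate 1 and 6.39 TPM in replicate 2. The order was the same in both libraries, but all 3 genes share exons with other annotated genes. In M21, Hoxb3 shares 52.9% of its exon bases with the antisense gene Hoxb3os. Hoxb3os itself had 51.5 TPM in replicate 1 and 56.4 TPM in replicate 2. Hoxa3 shares 27.1% and Hoxd3 shares 62.8%, in Hoxd3 mostly with the same-strand gene Gm28230, not analysed here. The counted lengths differed from the M21 exon lengths. They were 3006 against 4251 bases for Hoxb3, 6836 against 6014 for Hoxa3 and 6627 against 4191 for Hoxd3. The shared part of the counted exons may therefore differ.

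Group 4 genes pattern the neck vertebrae. The 3 listed ones were all expressed, and Hoxd4 was not among the listed features. Hoxc4 (chr15:103018934-103036852) had 52.9 TPM in replicate 1 and 48.0 TPM in replicate 2. Hoxa4 (chr6:52189671-52191753) had 51.8 TPM in replicate 1 and 40.7 TPM in replicate 2, a range that overlapped that of Hoxc4. Hoxb4 had 19.6 TPM in replicate 1 and 21.3 TPM in replicate 2, and lay below both paralogs in each library.

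Group 5 was the highest paralog group, with 237.0 TPM in replicate 1 and 215.0 TPM in replicate 2, or 35.1 ± 0.354% of the Hox sum (SD, n = 2). Its genes act at the level of the lower neck and upper thorax, and Hoxa5 is needed in mice for lung development and for phrenic motor neurons, which innervate the diaphragm. Hoxa5 (chr6:52201754-52204587, minus strand) had 164.9 TPM (2626 counts) in replicate 1 and 149.0 TPM (2033 counts) in replicate 2. No exon base of it is shared with another annotated gene. It lay above every other Hox gene in both libraries and above 93.0% of expressed protein-coding genes. Hoxc5 (chr15:102967443-103017429) followed at 60.3 TPM in replicate 1 and 53.7 TPM in replicate 2. Hoxb5, which has a role in lung branching and in enteric neural crest, had 11.8 TPM in replicate 1 and 12.4 TPM in replicate 2, so the order a, c, b held in both libraries without overlap.

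Groups 6 to 8 pattern the thoracic, rib-bearing region, and all 8 of their genes were expressed. In group 6, Hoxa6 had 28.5 TPM in replicate 1 and 27.4 TPM in replicate 2. Hoxc6 had 26.0 TPM in replicate 1 and 18.7 TPM in replicate 2, and so varied more. Hoxb6 had 5.96 TPM in replicate 1 and 6.17 TPM in replicate 2. The order a, c, b held here too, as in group 5, without overlap.

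In group 7, Hoxa7 (chr6:52214491-52221854, minus strand) had 43.3 TPM in replicate 1 and 24.8 TPM in replicate 2, the widest gap among the Hox genes above 10 TPM. Hoxb7 had 8.09 TPM in replicate 1 and 7.04 TPM in replicate 2. In group 8, Hoxc8 (chr15:102990607-102994111) had 22.8 TPM in replicate 1 and 15.6 TPM in replicate 2. Hoxc8 marks the level of the lower neck to thorax, where it acts in motor neurons of the forelimb. Hoxd8 (chr2:74704615-74707933) had 14.6 TPM in replicate 1 and 11.0 TPM in replicate 2, and was the highest gene of its cluster in each. Hoxb8 had 4.10 TPM in replicate 1 and 3.95 TPM in replicate 2. Within groups 6, 7 and 8 the Hoxb gene was the lowest in both libraries.

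Group 9 summed to 10.4 TPM in replicate 1 and 11.6 TPM in replicate 2, below each of groups 2 to 8. These genes act in the lower thorax, and in limb positioning. Hoxb9 had 5.04 TPM in replicate 1 and 6.79 TPM in replicate 2, and Hoxa9 had 4.73 TPM in replicate 1 and 3.06 TPM in replicate 2. Hoxc9 had 0.291 TPM (6 counts) in replicate 1 and 0.566 TPM (10 counts) in replicate 2. Hoxd9 had 0.378 TPM (7 counts) in replicate 1 and 1.20 TPM (19 counts) in replicate 2. The a and b paralogs lay above the c and d paralogs in both libraries.

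No gene of groups 10 to 13, which act in the lumbar, sacral and tail regions, the urogenital tract and the distal limb, reached 1 TPM in either library. Hoxa10 had 0.433 TPM (12 counts) in replicate 1 and 0.252 TPM (6 counts) in replicate 2. Hoxa11 had 0.263 TPM (6 counts) in replicate 1 and 0.205 TPM (4 counts) in replicate 2. Hoxa13 and Hoxc13 each had 2 counts in replicate 1 and 0 in replicate 2. The remaining 8 genes, Hoxb13, Hoxc10, Hoxc11, Hoxc12, Hoxd10, Hoxd11, Hoxd13 and Hoxd12, were without a read in either library. With a floor of 3 counts per library, a count of 0 allows from 0.0632 to 0.343 TPM in replicate 1 and from 0.0738 to 0.400 TPM in replicate 2, depending on gene length.

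**Figure D2:**
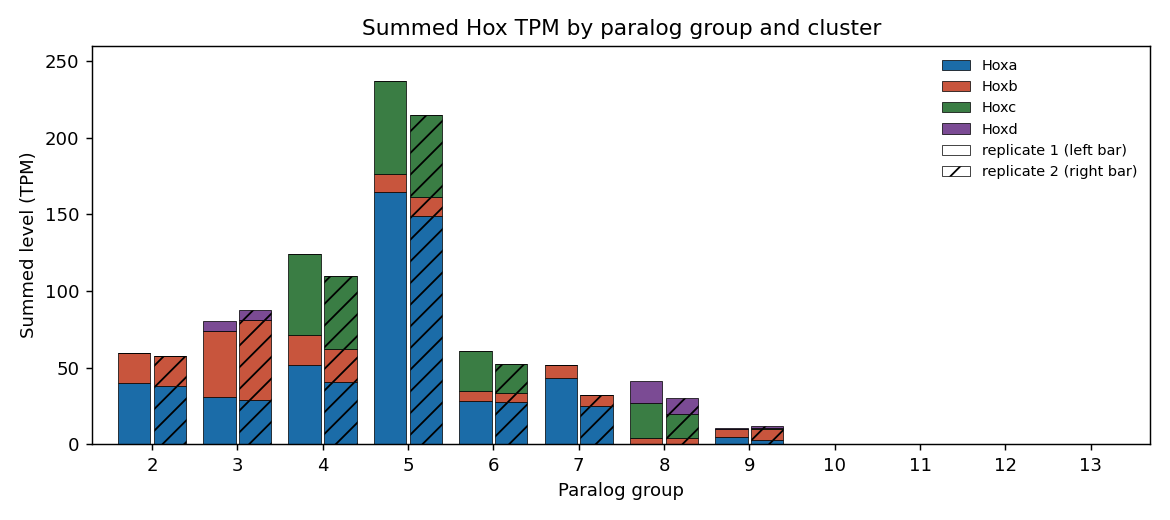
Summed TPM of paralog groups 2 to 13 on a linear axis, stacked by cluster, with replicate 1 as the plain left bar and replicate 2 as the hatched right bar. Group 5 stands highest at 237.0 TPM in replicate 1 and 215.0 TPM in replicate 2, mostly Hoxa5, and groups 10 to 13 are not visible at this scale.

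The order of levels was resolved in part, judged by the spread between the libraries alone. TPM also depends on the gene length used. That length was 1731 bases for Hoxa6, against 874 exon bases in M21, and 4149 for Hoxb4, against 2566. The order with M21 lengths was not computed. Among the 22 expressed Hox genes ranked by mean TPM there are 21 pairs of neighbours, and in 10 of them the ranges of the libraries overlapped. Hoxa5, Hoxc5 and Hoxc4 held the top ranks without overlap between Hoxa5 and Hoxc5 or between Hoxc5 and Hoxc4. Hoxc4, Hoxb3 and Hoxa4 overlapped as neighbours, at means of 50.4, 47.4 and 46.3 TPM. At the lower end Hoxb6 and Hoxb9 overlapped, as did Hoxb8 and Hoxa9. In all, 16 Hox genes had 10 TPM or more in both libraries.

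The cofactors were each expressed in both libraries and, by the median, were more even between libraries than the Hox genes. Their median coefficient of variation over the libraries was 1.90%, against 7.71% for expressed Hox genes and 5.08% for expressed protein-coding genes. Their counts per library were lowest for Pbx4, at 28 in replicate 1 and 35 in replicate 2. The next lowest was Meis3, at 935 in replicate 1 and 767 in replicate 2. Expressed Hox genes went down to 92 in replicate 1 and 76 in replicate 2 (Hoxb8). These medians were not adjusted for counting error, which is larger at low counts. Summed over the 9 genes, cofactor transcripts reached 482.2 TPM in replicate 1 and 486.1 TPM in replicate 2. Among the 8 neighbour pairs of the cofactor order, 0 overlapped.

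Pbx proteins are the direct partners of Hox proteins on DNA. Pbx2 (chr17:34591266-34597400, plus strand) was the highest cofactor at 154.7 TPM in replicate 1 and 150.6 TPM in replicate 2, above 92.7% of expressed protein-coding genes. Mice without Pbx2 are viable. Pbx3, needed in mice for central control of breathing, had 24.5 TPM in replicate 1 and 24.4 TPM in replicate 2. Pbx4, known mainly from the testis, had 1.58 TPM (28 counts) in replicate 1 and 2.31 TPM (35 counts) in replicate 2, and was the lowest cofactor in both libraries.

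Meis proteins bind DNA beside Pbx and carry it into the nucleus, and their 3 genes summed to 167 ± 1.81 TPM (SD, n = 2). Meis2, which has roles in the cranial neural crest and heart, had 69.8 TPM in each library. Meis1, known from blood formation and limb patterning, had 61.2 TPM in replicate 1 and 65.2 TPM in replicate 2, with 18.3% of its exon bases shared with other annotated genes. Meis3 had 34.7 TPM in replicate 1 and 33.2 TPM in replicate 2. Pknox proteins are related partners of Pbx. Pknox1 had 30.8 TPM in replicate 1 and 31.0 TPM in replicate 2, and Pknox2 had 21.4 TPM in replicate 1 and 20.9 TPM in replicate 2. Meis transcripts thus exceeded Pknox transcripts, which summed to 52.0 ± 0.154 TPM (SD, n = 2), in both libraries.

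**Figure D3:**
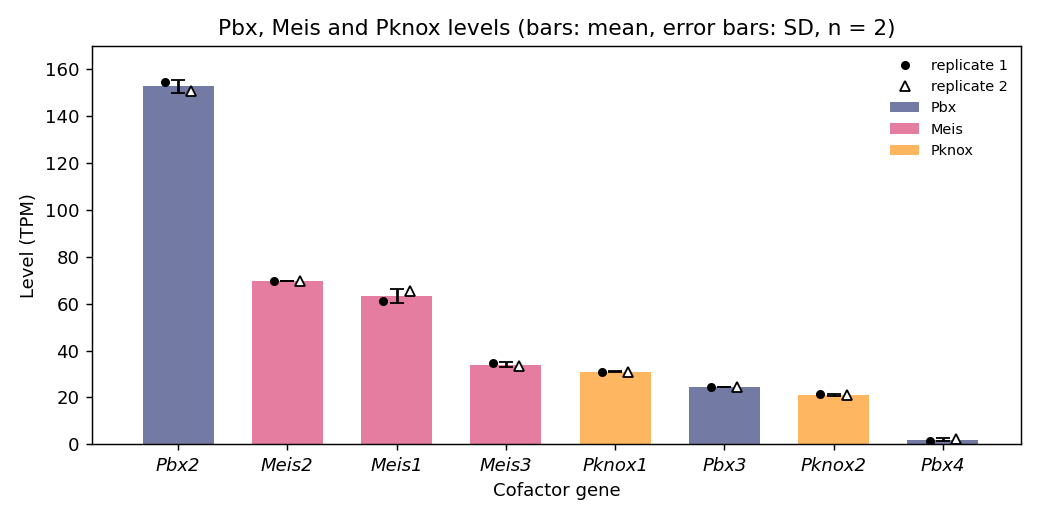
Level in TPM of the cofactor genes reported here on a linear axis, as bars for the mean with SD (n = 2), with replicate 1 as filled circles and replicate 2 as open triangles. Pbx2 stands highest near 153 TPM, Pbx4 lowest near 1.95 TPM, and the points of the 2 libraries lie close together for each gene.

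Set against the Hox genes, cofactor transcripts summed to 0.709 times the Hox TPM in replicate 1 and 0.799 times in replicate 2, a mean of 0.754 ± 0.0637 (SD, n = 2). Without the members that share over 10% of their exon bases, the ratio was 1.00. Without division by gene length, on library-scaled counts (CPM), it was 2.10, since several cofactor transcripts are long. Which family was more abundant therefore depended on the scale and on the overlapping genes.

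The libraries were then compared gene by gene as the log2 ratio of replicate 1 over replicate 2, with an exact Clopper-Pearson interval (95%) that covers counting error only. The ratio compares 2 libraries of 1 group, with 1 library on each side, so no p-value is given. Of the 28 Hox genes with 10 or more counts over both libraries, 5 were higher in replicate 1 by more than 1.5-fold (17.9%), against 5.16% of the 19433 features with that many counts. They were Hoxa7, Hoxa9, Hoxa10, Hoxc8 and Hoxd1. In the other direction 2 were lower in replicate 1 by more than 1.5-fold, Hoxc9 and Hoxd9, against 6.04% of features. Of the cofactors 0 of 9 were past 1.5-fold either way.

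Judged by the interval instead, 10 of the 28 Hox genes lay above 0 (35.7%), against 14.3% of features, and 3 lay below 0 (10.7%), against 12.8%. The share above 0 was thus larger than that of all features, and the share below 0 was near it. The median ratio was 0.17 for the Hox genes and 0.014 for all features. The cofactor median was 0.039, with 1 interval above 0 (Pbx2) and 1 below.

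Hoxa7 had 1058 counts in replicate 1, against 519 in replicate 2, a log2 ratio of 0.84 with an interval from 0.69 to 1.00. A share of 20.4% of its exon bases lies under the antisense gene Hoxaas3, not analysed here. Its cluster neighbour Hoxa9 had 224 counts in replicate 1 and 124 in replicate 2, with a log2 ratio of 0.67 (interval 0.35 to 1.00). In the Hoxc cluster, Hoxc8 had 444 counts in replicate 1 and 260 in replicate 2, with a ratio of 0.59 (0.36 to 0.81). Hoxc8 was within 1.5-fold when scaled by DESeq2 size factors (0.58) or with 5 added to counts (0.58). Hoxc6, at 0.52 (0.32 to 0.72), and Hoxd8, at 0.45 (0.21 to 0.71), were below 1.5-fold with intervals above 0. The genes at low counts past 1.5-fold rested on few reads: the intervals of Hoxa10, Hoxc9 and Hoxd1 included 0, Hoxa10 was within 1.5-fold with 5 added to counts (0.44), and Hoxd9 had a ratio of -1.56 (-3.12 to -0.31).

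Cluster by cluster the ratios are given side by side, and no test of a difference between clusters or paralog groups was run. Over all features with 10 or more counts, 52.8% had a ratio above 0. All 10 Hoxa genes with enough counts had ratios above 0 and 5 had intervals above 0, where the share of all features with such an interval was the 14.3% given above. Of 5 Hoxc genes, 4 had ratios above 0 and the same number had intervals above 0. Of 4 Hoxd genes, 3 had ratios above 0, with 1 interval above 0 (Hoxd8) and 1 below (Hoxd9). Of 9 Hoxb genes, 4 had ratios above 0, none had an interval above 0, and Hoxb3 and Hoxb9 had intervals below 0.

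On summed counts the log2 ratio was 0.26 (0.21 to 0.31) for Hoxa, 0.28 (0.21 to 0.35) for Hoxc, 0.27 (0.11 to 0.43) for Hoxd and -0.11 (-0.18 to -0.033) for Hoxb. By paralog group it was 0.78 (0.63 to 0.92) for group 7, 0.48 (0.32 to 0.63) for group 8, 0.28 (0.15 to 0.42) for group 6 and 0.18 (0.11 to 0.24) for group 5. For groups 1 to 4 together it was 0.076 (0.027 to 0.12). For groups 9 to 13 together it was 0.16 (-0.063 to 0.39), an interval that included 0. The group 7 value rests on Hoxa7, which supplied 1058 of its 1164 counts in replicate 1, while Hoxb7 had a ratio of 0.24 (-0.19 to 0.68). In group 8, Hoxb8 had a ratio of 0.090 (-0.36 to 0.55), below those of Hoxc8 and Hoxd8.

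**Figure D4:**
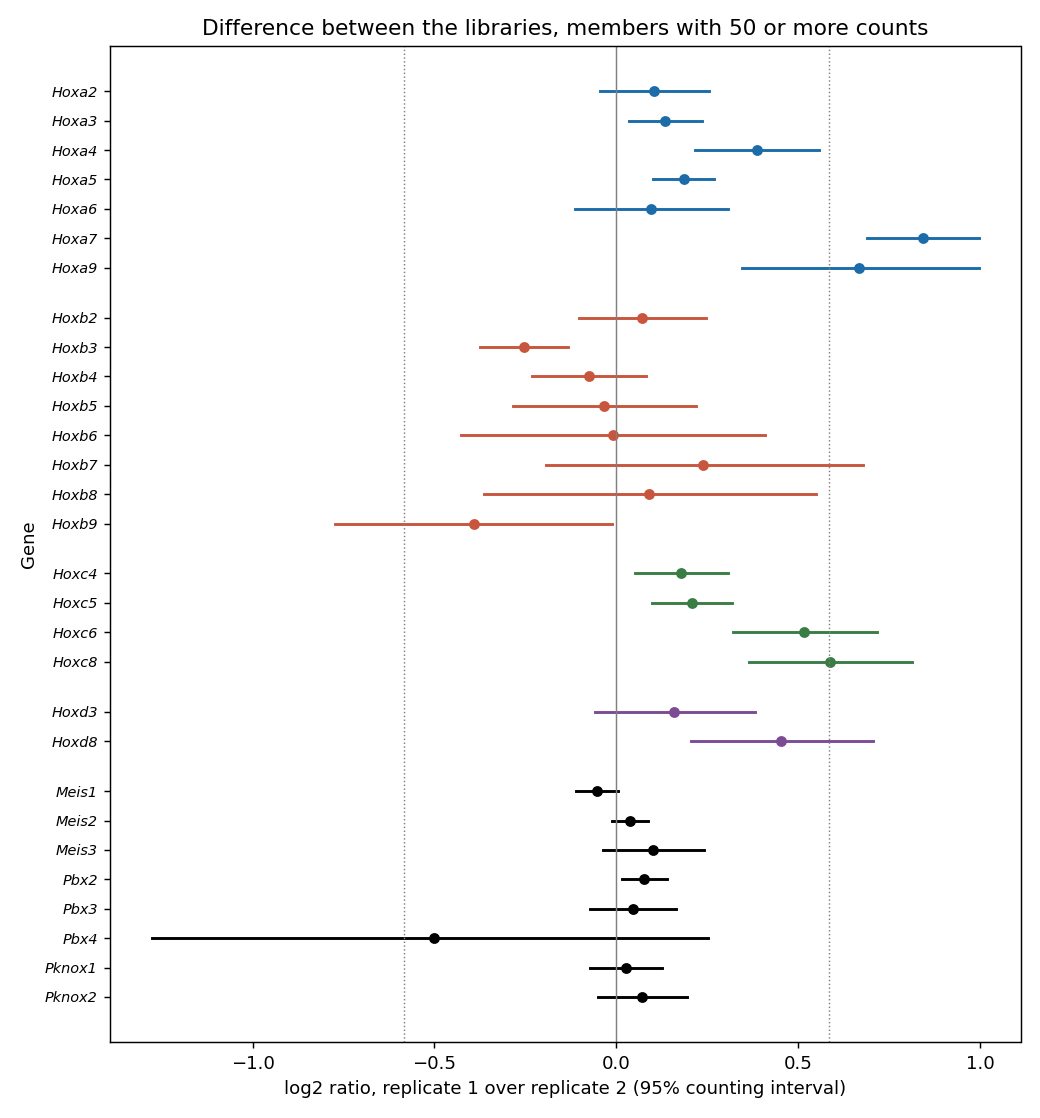
The log2 ratio of replicate 1 over replicate 2 for the members reported here with 50 or more counts, as points with 95% counting intervals, grouped from top to bottom as Hoxa, Hoxb, Hoxc, Hoxd and cofactors; dotted lines mark 1.5-fold. Hoxa7, Hoxa9 and Hoxc8 lie furthest to the right, Hoxb3 and Hoxb9 lie left of 0, and all cofactor points except Pbx4, at -0.50 with a wide interval, are near 0.

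Markers of other tissues also differed between these libraries. Of the 10 markers of mesonephros and gonad, which lie next to the folds, 6 of the 8 with enough counts were higher in replicate 1 by more than 1.5-fold and 0 were lower. Summed, they had 37.1 TPM in replicate 1 and 16.8 TPM in replicate 2. Emx2 had 518 counts in replicate 1 and 179 in replicate 2, and Pax8 had 69 in replicate 1 and 3 in replicate 2. Neuronal markers were lower in replicate 1 in 7 of 9. Their sum was 26.3 TPM in replicate 1 and 57.5 TPM in replicate 2. Nefl and Stmn2 were the highest of them, at 9.73 and 9.66 TPM by mean, and Mnx1 had 0 counts in both libraries. Hepatoblast markers were lower in 7 of 7, at 109 TPM in replicate 1 and 286 TPM in replicate 2 in sum. The part of these tissues in the Hox ratios was not tested.

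For the other tissues the markers moved less. The limb bud list summed to 49.7 TPM in replicate 1 and 64.8 TPM in replicate 2, with Tbx4 and Pitx1 lower in replicate 1. Of its 8 genes 5 were expressed, beside 63.8% of protein-coding genes. Hand2 (23.6 TPM) and Fgf10 (19.7 TPM) led by mean, and Shh was at 0. The spinal cord progenitor list had 1 of 3 genes lower. The sclerotome and cartilage list and the lung and gut list each had 1 of 4 lower. Expressed genes numbered 2 of 8 in the spinal cord list, led by Dbx1 (23.1 TPM by mean), with Olig2 and Sox1 at 0. In the sclerotome and cartilage list they were 3 of 8, Scx (132 TPM), Sox9 (31.1 TPM) and Col2a1 (19.2 TPM), with Nkx3-2 and Matn1 at 0. In the lung and gut list they were 3 of 8, led by Barx1 (6.31 TPM), with Nkx2-1 and Cdx2 at 0. Erythroid markers were lower in replicate 1 in 2 of 7. The PPF connective tissue, muscle, mesothelial, endothelial and macrophage lists had 0 genes past 1.5-fold.

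Chromatin regulators of Hox genes were measured as lists. Polycomb proteins keep Hox genes silent where they are not used. Of 28 polycomb genes 27 were expressed, beside 63.8% of protein-coding genes, with a median of 46.4 TPM. The histone-binding subunits Rbbp7 and Rbbp4 led at 313 ± 3.65 and 164 ± 3.60 TPM, followed by the ubiquitin ligase Rnf2 at 120 ± 1.59 TPM and the chromobox gene Cbx6 at 98.1 ± 4.65 TPM (SD, n = 2). Cbx7 was the exception, at 1.04 TPM in replicate 1 and 0.763 TPM in replicate 2. Trithorax-group and histone demethylase genes, which counteract polycomb, were expressed in 9 of 9, beside the same 63.8%, with a median of 70.7 TPM. Psip1 had 129 ± 1.11 TPM, Wdr5 102 ± 2.98 TPM and Men1 95.9 ± 2.16 TPM (SD, n = 2).

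Retinoic acid, Cdx proteins and the growth factor Gdf11 are known inputs to Hox genes in the early embryo. Of 10 genes of these inputs, 7 were expressed, beside 63.8% of protein-coding genes. Aldh1a2, which makes retinoic acid, had 269 TPM in each library, and the retinoic acid receptors Rarb, Rara and Rarg had 69.8 ± 1.17, 58.3 ± 1.16 and 43.7 ± 1.13 TPM (SD, n = 2). Cdx1 and Cdx2, which act in the tail end of the embryo, had 0 counts in both libraries. None of the polycomb, trithorax or input genes with 10 or more counts was past 1.5-fold between the libraries.

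Other genes of the homeobox class to which Pbx and Meis belong, called TALE, were expressed in 6 of 9, beside 63.8% of protein-coding genes. Tgif1 had 54.1 ± 0.462 TPM and Tgif2 had 39.5 ± 0.816 TPM, in the range of the middle cofactors, while Irx3 had 6.51 ± 0.323 TPM and Mkx, a tendon gene, had 3.10 ± 0.519 TPM (SD, n = 2). Pbxip1, whose product binds Pbx and keeps it from DNA, had 53.4 ± 2.69 TPM. Gmnn, whose product geminin binds Hox proteins, had 66.2 ± 0.860 TPM (SD, n = 2).

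Genes beside the clusters did not share a common level. Of 8 neighbours 4 were expressed, beside 63.8% of protein-coding genes. Calcoco1 beside Hoxc had 74.8 ± 4.88 TPM and Skap2 beside Hoxa had 65.1 ± 5.68 TPM (SD, n = 2). Mtx2 beside Hoxd had 50.4 ± 1.37 TPM and Smug1 beside Hoxc had 35.2 ± 0.207 TPM (SD, n = 2). Evx1 and Evx2, homeobox genes at the posterior ends of Hoxa and Hoxd, had 0 counts in both libraries. Of the 5 neighbours with 10 or more counts, 0 were past 1.5-fold.

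The promoters of an expressed and of a silent gene are shown because their base composition can be set beside their levels. Windows came from RefSeq (GRCm38.p6), which held 1 for 26 of the 47 members, with 23 windows for 21 Hox genes. The 250 bases before the start are given, with each CpG in capitals, for Hoxa5 at chr6:52204588-52204837 (minus strand) and Hoxd13 at chr2:74667975-74668224 (plus strand).
Hoxa5: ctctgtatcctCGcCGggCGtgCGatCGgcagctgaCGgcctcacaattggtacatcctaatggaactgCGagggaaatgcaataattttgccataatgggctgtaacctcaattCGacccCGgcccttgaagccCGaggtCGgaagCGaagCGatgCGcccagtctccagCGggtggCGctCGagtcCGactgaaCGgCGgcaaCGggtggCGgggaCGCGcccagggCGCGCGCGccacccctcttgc
Hoxd13: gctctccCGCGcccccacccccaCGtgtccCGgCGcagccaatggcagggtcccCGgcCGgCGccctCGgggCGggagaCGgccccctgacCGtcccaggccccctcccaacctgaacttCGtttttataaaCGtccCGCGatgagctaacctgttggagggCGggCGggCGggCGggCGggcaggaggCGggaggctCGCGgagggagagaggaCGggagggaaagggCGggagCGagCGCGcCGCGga

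Hoxd13 was taken as the gene with 0 counts whose window held the most CpG. The Hoxa5 stretch held 28 CpG and the Hoxd13 stretch 31, with the genes at 157 TPM and 0 counts. Because Hoxd13 was chosen by its CpG number, this pair cannot tell whether CpG number and level go together. The other windows of genes with 0 counts, at 300 bases, held 22 CpG (Hoxd10), 4 and 25 (Hoxd11) and 13 (Hoxd12). Over the whole windows of 300 bases, the median CpG number was 15 for the 23 Hox windows (range 4 to 45) and 7 for all 32851 windows. It was 13 over the 11 windows of expressed Hox genes (range 4 to 29) and 20.5 over the 12 windows of the other Hox genes (range 4 to 45), so the ranges overlapped.

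The windows of 300 bases were also searched for a Hox-Pbx site, TGATNNAT on either strand, and a Meis site, TGACAG on either strand. Of the whole windows, 4 of 23 Hox windows held the Hox-Pbx letters (17.4%), against 8.85% of all windows. For the Meis letters the figures were 2 of 23 (8.70%) and 19.2%. A match is a description of letters and not a bound site. All 4 lay before the start that RefSeq gives for the window, and the stretches are given on the strand of the gene with the match in capitals.
Hoxa2: acttttttggATCAATCAaacagacagt
Hoxb1: gattggggggTGATGGATgggcgctggg
Hoxb8: taataaggaaATTGATCAtta
Hoxd11: taccaccagaATCAATCAagatgaattg

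They lie at chr6:52164925-52164952 (minus strand), chr11:96365586-96365613, chr11:96281884-96281904 and chr2:74682240-74682267 (plus strand). The Hoxd11 match lies in the second of its RefSeq windows and within the gene as annotated in M21, and the Hoxa2 match lies within the deposited span of that gene. The genes with the match spanned the range of levels: 39.0 ± 1.27 TPM for Hoxa2, 4.03 ± 0.104 TPM for Hoxb8, under 1 TPM for Hoxb1 and 0 counts for Hoxd11 (SD, n = 2).

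The clusters also hold microRNA genes, whose mature products target Hox transcripts among others. Their mature sequences are given with the seed, bases 2 to 8, in capitals.
mmu-miR-10a-5p: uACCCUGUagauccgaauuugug
mmu-miR-10b-5p: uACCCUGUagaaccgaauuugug
mmu-miR-196a-5p: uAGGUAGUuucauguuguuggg
mmu-miR-196b-5p: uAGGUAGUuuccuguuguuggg
mmu-miR-615-5p: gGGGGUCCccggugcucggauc

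The miR-10 genes, which lie in the Hoxb and Hoxd clusters, share a seed, and so do the miR-196 genes of Hoxa, Hoxb and Hoxc. The features of all 6 microRNA genes, Mir10a, Mir10b, Mir196a-1, Mir196a-2, Mir196b and Mir615, had 0 counts in both libraries. Hairpins and mature microRNAs are not polyadenylated, and a poly(A)-selected library does not measure them. The long noncoding gene Hotair in the Hoxc cluster had 0 counts in both libraries as well.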

How the data were processed

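Messenger RNA was sequenced from 2 wild-type PPF libraries prepared from poly(A)-selected RNA with a stranded kit, per the labels' protocols. Per the submitters' processing notes, the authors' tools were featureCounts, STAR 2.4.0a and SAMtools 1.3, with mm9 as the build; the strand setting and read length are not given in the sources used here. The deposited files give a raw count per gene, not normalised by the authors, and a TPM value computed by the authors, which equalled count divided by gene length and rescaled (largest difference 4.7e-11). In GENCODE M21 on GRCm38 the deposited span was identical for 12 and the exon length for 18 of the 47 members, so positions are given from there; for 4 (Hoxc6, Hoxc9, Meis3 and Pbx4) the recognition-helix codons lie outside the deposited start and end. Exon sharing was computed from GENCODE M21, so for members of another deposited length the shared part of the counted exons may differ.

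Expressed means at least 1 TPM in each library. For the log2 ratio, 0.5 was added to counts, which were scaled by TMM factors (edgeR 4.0.16, R 4.3.3); the calls are past 1.5-fold among features with 10 or more counts. Intervals came from scipy 1.17.1 (Python 3.11.15). Reads carry no molecular identifiers, so intervals and the floor of 3 counts cover counting error only. The ratio and its interval were tested on simulated counts that held counting error only. Such counts cannot show how the interval behaves under further variation between libraries. Alternatives were other TPM thresholds, CPM, members without shared exons, library totals, DESeq2 1.42.0 size factors, other folds, count minimums and added counts, and each library alone. Members could be named; of each other list, the 4 highest and 2 lowest and any gene past 1.5-fold, with partners that share exons or lie in the clusters. Members and lists were chosen with earlier results of these data known. Some members are counted in totals and are not reported here singly.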

Additional observations from a re-analysis of the deposited data

How the results depend on the processing

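The number of expressed Hox genes was 22, and lay between 20 and 23 at 5 or 0.5 TPM, at 1 CPM, and with either library alone; cofactors numbered 8 (at 5 TPM) or 9. On CPM, with no gene length, the Hoxa share was 49.7%, the Hoxd share 4.77%, paralog groups 1 to 4 held 50.3%, groups 5 to 8 held 47.3% and groups 9 to 13 held 2.41%, so the bands 1 to 4 and 5 to 8 changed order; the cofactor to Hox ratio was 2.10. Without members sharing over 10% of exon bases, Hoxa held 47.6%, Hoxb 13.5%, Hoxc 35.5%, groups 1 to 4 held 19.8%, groups 5 to 8 held 77.5%, groups 9 to 13 held 2.74%, and the ratio was 1.00. With expressed members alone, Hoxd held 3.03% and groups 9 to 13 held 1.54%. With either library alone the cluster shares stayed between 53.1 and 55.4% for Hoxa and between 17.3 and 21.3% for Hoxb.

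Of the 7 members past 1.5-fold between the libraries, 2 were past 2-fold (Hoxd1 and Hoxd9) and 3 remained with 50 or more counts (Hoxa7, Hoxa9 and Hoxc8). The count was 7 with library totals, 6 with DESeq2 size factors (without Hoxc8), 9 with no minimum and 5 with 5 added to counts (without Hoxc8 and Hoxa10). No ratio exists with either library left out. Other scalings moved the median ratio of all features by 0.003 (library totals) and -0.0048 (DESeq2 size factors) on the log2 scale. No paired analysis was possible because the series has 1 group. At this depth a Hox gene with 0 counts could hold up to 0.400 TPM.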

Other observations

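Features listed within the Hox clusters other than the members include Hoxb3os, Hotair and the microRNA genes described above. They are not all separate genes, since HOTAIRM1, HOXA11-AS1, HOXB13-AS1 and Hotair are listed in pieces. Expressed features numbered 9 of 18 in Hoxa, 4 of 9 in Hoxb, 0 of 7 in Hoxc and 2 of 6 in Hoxd, beside 44.4% of all listed features. Because of the pieces these numbers do not compare the clusters. The piece HOTAIRM1_4 was highest, at 104.0 TPM (90 counts) in replicate 1 and 93.1 TPM (69 counts) in replicate 2. In Hoxa, Gm15050 had 53.8 TPM in replicate 1 and 44.4 TPM in replicate 2, Gm15051 had 40.5 TPM in replicate 1 and 40.8 TPM in replicate 2, and 5730446D14Rik had 32.9 TPM in replicate 1 and 31.9 TPM in replicate 2. The feature 2700086A05Rik had 24.8 TPM in replicate 1 and 19.3 TPM in replicate 2, with a log2 ratio of 0.40 (0.21 to 0.58), beside 0.39 (0.22 to 0.56) for Hoxa4, which lies within its span. These features were chosen after their values were seen.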
